A study of Mus musculus with 2 samples.

Results

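Smooth muscle contractile genes were followed in colon RNA of Villin-Cre control mice and of EP4 cKO mice. The 10 genes were given by symbol (Acta2, Actg2, Myh11, Myl9, Mylk, Tagln, Cnn1, Tpm1, Tpm2 and Des), and they are 10 of the 22909 genes that could be named on the arrays. All 10 had at least 1 probe, and together they had 20. Both groups were mice of the strain C57BL/6, aged 8 weeks by the methods of the study, and both carried Villin-Cre, in which the villin promoter makes Cre recombinase in the intestinal epithelium and not in muscle. The controls (genotype Villin-Cre) had no other allele named, whereas the EP4 cKO mice (genotype Villin-Cre; EP4flox/flox) also had floxed alleles of Ptger4, the gene of the prostaglandin E2 receptor EP4, so that the deletion was directed at epithelial cells and the muscle was not its target. No treatment was named for either group. The methods describe the tissue as whole colon with n = 3 per genotype, and the labels describe RNA pooled from 3 individual pools of colon, of which 1 Agilent 1-colour array per genotype was analysed here. With 1 array per genotype there is no replicate check and no p-value, and every statement on a direction describes these arrays only.

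The wall of the colon holds smooth muscle in the thin muscularis mucosae and in the circular and longitudinal layers of the muscularis propria. Its cells shorten when calcium and calmodulin activate myosin light chain kinase, which phosphorylates the regulatory light chain of smooth muscle myosin and lets the myosin pull on actin filaments. Tropomyosins, calponin and transgelin lie along or bind to these actin filaments, and desmin filaments link the contractile units. Most of these genes are under the control of serum response factor, which binds an AT-rich element called the CArG box, together with its muscle coactivator myocardin.

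Signals were scaled on each array to a trimmed mean of 2500 and are called normalized signals below. All ratios are EP4 cKO over Villin-Cre on the log2 scale, and a gene was called higher or lower when its ratio passed 2-fold. A probe that the scanner software did not mark as well above background has no measured level. Where that was so on 1 array only, the dim side was held at its own signal or at the floor of its array, whichever was higher. The floor is the lowest normalized signal of any probe well above background, 125 in the control and 57.8 in the EP4 cKO colon, and such a ratio is a bound. The error given after a ratio is that of the scanner software's error model for the 2 spots, each probe of the 10 genes having 1 spot per array, and it covers neither the hybridization nor the mice. The median SD of the log2 ratio was 0.035 over 252 probes spotted 9 or 10 times, but 0.19 over the 4 of them with a Villin-Cre signal from 200 to 1000. Signals of different probes are not compared, since each probe has its own response, and the sequences of the probes were not used here, so binding of transcripts of related actins or tropomyosins was not assessed.

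Of all probes, 45.4% were well above background in the control and 51.6% in the EP4 cKO colon, and 14679 genes had a ratio, with a median of -0.10. Among them 7.98% were more than 2-fold lower and 4.88% more than 2-fold higher on the EP4 cKO array. With scaling to the 75th percentile these shares were 6.27% and 6.42%. The targeted gene, Ptger4, gave 6227 (labelled Villin-Cre) and 5661 (labelled EP4 cKO) with its brighter probe, a log2 ratio of -0.14 ± 0.20, and 393 and 592 with its dimmer one, a ratio of 0.59 ± 0.23. The array labelled EP4 cKO was not lower in Ptger4 by 2-fold with either probe, the position of the probes relative to the floxed part was not used here, and all directions rest on the labels.

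The 10 genes were unevenly detected: 8 had a probe well above background in the control and 9 in the EP4 cKO colon, Acta2, Actg2 and Tagln among them, while Myh11 and, in the control, Des did not, although the methods name whole colon. Myh11, the smooth muscle myosin heavy chain and the most specific marker among the 10 genes, had no probe of its 3 well above background in either colon. Their normalized signals were 99.5, 63.7 and 27.4 in the control and 38.0, 32.9 and 12.5 in the EP4 cKO colon. Des, the gene of the muscle intermediate filament desmin, had 30.7 on the Villin-Cre array, which was not well above background, and 108 on the EP4 cKO array, which was. As 108 lies under the floor of the Villin-Cre array, no fold is given for Des. In all, 13 of the 20 probes passed this mark on both arrays, 1 passed it for EP4 cKO alone and 6 did not pass it on either, and no spot of the 10 genes was saturated or marked as an outlier. Of 26 other genes of the smooth muscle cytoskeleton, 18 had a ratio or a bound, beside 14679 of all 22909 named genes. A probe past this mark was found for 17 of the 26 in the control and for 18 in the EP4 cKO colon. Lmod1 (leiomodin, which nucleates actin filaments in smooth muscle), Synpo2, Synm, Pdlim3 and Pgm5 were among the 8 without one in either colon. These named genes were singled out after their values were seen. None of the 4 markers of enteric glia, which lie in the nerve plexuses next to the muscle, passed that mark in either colon. The 9 epithelial markers passed it in both. How much muscle the tissue pieces held was not recorded in the sources used here.

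**Figure D1:**
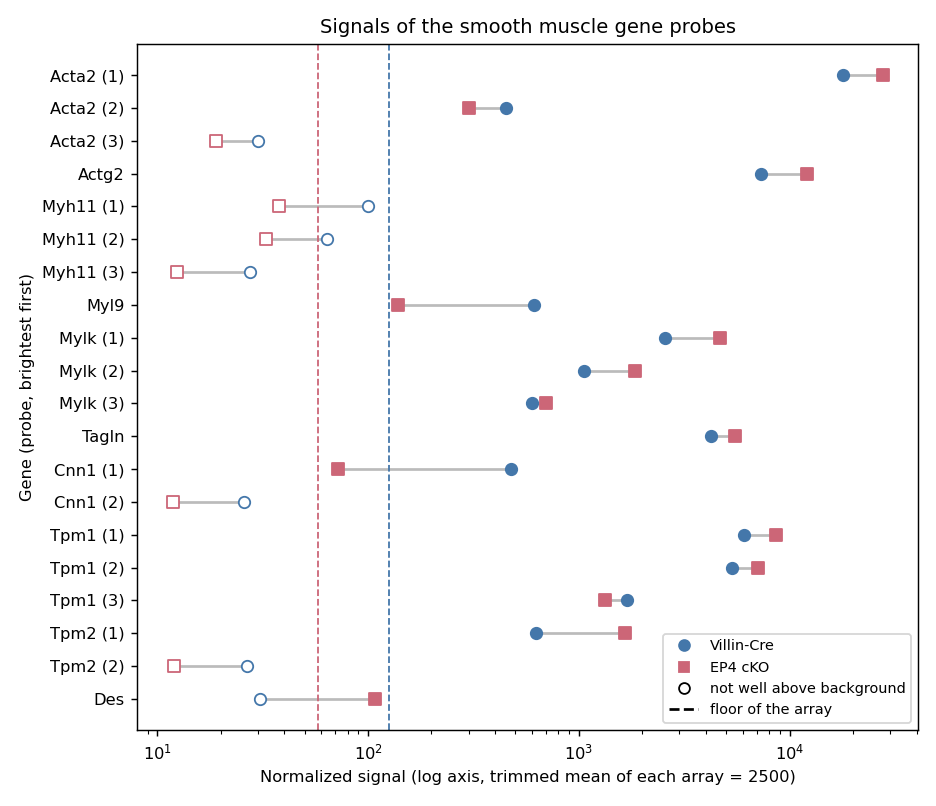
Normalized signal (log axis) of the 20 probes of the 10 contractile genes on the Villin-Cre array (circles) and the EP4 cKO array (squares), with open symbols for probes not well above background and dashed lines at the lowest signal well above background of each array. All 3 probes of Myh11 are open on both arrays, and Cnn1 (1) and Myl9 show the longest lines among the filled probes, with the square to the left.

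Among the 9 genes with a value, 2 were lower on the EP4 cKO array by more than 2-fold, 1 was higher by more than 2-fold, 5 lay within 2-fold, and Des had only a bound, which does not exceed 1-fold and leaves its change unmeasured. Cnn1 fell 6.62-fold and Myl9 fell 4.43-fold, whereas Tpm2 rose 2.64-fold. The remaining 5 genes measured on both arrays (Acta2, Actg2, Mylk, Tagln and Tpm1) all had ratios above 0, from 0.38 to 0.86. The median over the 9 genes was 0.50, against -0.10 over all genes. This distance rests on the brightest probes, as the medians were 0.19 and -0.10 with a gene's probes averaged and 0.00 and -0.08 with the dimmest probe. By its rank among the ratios of all genes, Cnn1 lay at percentile 1.19, Myl9 at percentile 2.04, Tpm2 at percentile 97.2, and the 5 genes within 2-fold between percentiles 84.5 and 93.8. A share of 2 in 9 lower and 1 in 9 higher stands beside 7.98% and 4.88% of all genes, and 9 genes are too few to read more from it. In bulk RNA, fewer cells of a type and less RNA per cell cannot be told apart.

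**Figure D2:**
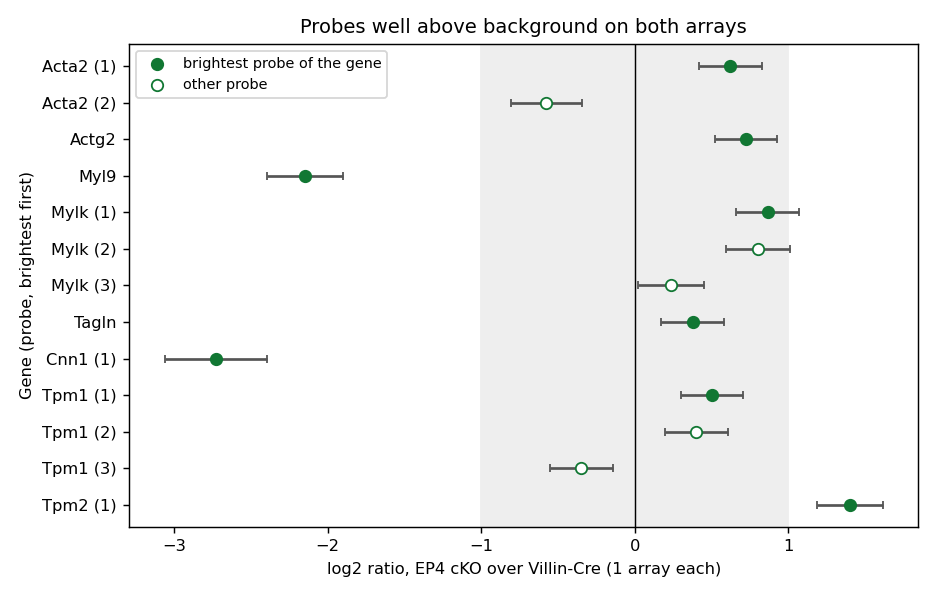
log2 ratio of EP4 cKO over Villin-Cre for the 13 probes with a measured level on both arrays, with bars for the scanner software's error of the 2 spots and a grey band for ratios within 2-fold. Cnn1 (-2.73) and Myl9 (-2.15) lie left of the band, Tpm2 (1.40) lies right of it, and Acta2 and Tpm1 each have probes on both sides of 0.

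Both muscle actins lay within 2-fold. Actg2, the gamma-actin of enteric smooth muscle, had 1 probe, with a normalized signal of 7308 in the control and 12072 in the EP4 cKO colon, a log2 ratio of 0.72 ± 0.20. Acta2, the alpha-actin of vascular smooth muscle, pericytes and myofibroblasts, had 18006 and 27719 with its brightest probe, a ratio of 0.62 ± 0.20. Its second probe had 451 and 302, a ratio of -0.58 ± 0.23, and the third had no level above background in either colon. The 2 measured probes of Acta2 are assigned to the same transcript, so its direction depends on the probe, and their mean was 0.02. The broadly expressed actins of the cytoskeleton had ratios of 0.42 (Actb, from 522663 to 701691) and 0.44 (Actg1, from 138650 to 187566).

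Of the smooth muscle myosin, the heavy chain Myh11 had no measured level and the regulatory light chain Myl9 was lower. The essential light chain Myl6, shared with other cells, lay within 2-fold. Myl9, the regulatory light chain of smooth muscle myosin, had a normalized signal of 612 in the control and 138 in the EP4 cKO colon, a log2 ratio of -2.15 ± 0.25 (-1.10 after normexp background correction with quantile normalization). Mylk, the kinase that phosphorylates this light chain, had 2555 and 4652 with its brightest probe (0.86 ± 0.20), 1056 and 1839 with the next (0.80 ± 0.21) and 597 and 702 with the dimmest (0.24 ± 0.21). All 3 probes of Mylk had ratios above 0 and within 2-fold. The nonmuscle regulatory light chains Myl12a and Myl12b had ratios of 0.46 and 0.50, and the essential light chain Myl6, shared by smooth muscle and other cells, 0.26. Of the nonmuscle heavy chains, Myh9 had -0.17 and Myh14, a form of epithelia, 0.46, while Myh10 had no measured level. Mylk3, a cardiac kinase of the same family, had none either.

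Of the proteins on the actin filament, calponin and beta-tropomyosin passed 2-fold in opposite directions. Cnn1, calponin 1, which binds actin and slows the myosin ATPase, had a normalized signal of 479 in the control and 72.3 in the EP4 cKO colon, a log2 ratio of -2.73 ± 0.33 (-1.03 after normexp with quantile normalization). The EP4 cKO value lies just above the floor of that array. Its second probe had no measured level. The calponins of other cells had ratios of 0.91 (Cnn2, from 349 to 658) and 0.28 (Cnn3, from 2280 to 2763). Tagln, transgelin, an early marker of the smooth muscle lineage, had 4224 and 5490, a ratio of 0.38 ± 0.20, and Tagln2, its relative in many cell types, -0.02. Tpm2, beta-tropomyosin, had 627 and 1654, a ratio of 1.40 ± 0.21, while its second probe, assigned to another transcript, had no measured level. Tpm1, alpha-tropomyosin, had 3 probes, each assigned to its own transcript variant. The brightest went from 6067 to 8600 (0.50 ± 0.20) and the next from 5355 to 7069 (0.40 ± 0.20), but the third went from 1690 to 1328 (-0.35 ± 0.21). The tropomyosins Tpm3 and Tpm4, found in most cells, had ratios of 0.60 and 0.28. For the intermediate filament, Des had no fold, and Vim, the vimentin of mesenchymal cells, had 986 and 809, a ratio of -0.29.

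Taking the 15 broadly expressed or nonmuscle relatives of these genes as a list, 13 had a value. None was more than 2-fold lower or higher, beside 7.98% and 4.88% of all genes. The median log2 ratio was 0.42, within a range of -0.29 to 0.91. With scaling to the 75th percentile 1 of the 13 was more than 2-fold higher, as with loess. With scaling to the E1A control spots, which raises every ratio measured on both arrays, 11 were, beside 39.9% of all genes. The median was 0.27 with a gene's probes averaged, 0.06 with the dimmest probe and 1.47 under the E1A scaling. Of the contractile genes, Acta2, Actg2, Mylk, Tagln and Tpm1 (0.38 to 0.86) lay within that range when the brightest probes were used on both sides, and Cnn1, Myl9 and Tpm2 lay outside it. No test of a difference between these lists was made. Among 17 relatives from striated muscle, 11 had a value, of which 2 were lower and 2 higher, beside 7.98% and 4.88% of all genes. Acta1, the skeletal alpha-actin, rose from 235 to 921 (3.93-fold) and Tnni2, a fast skeletal troponin, from 244 to 790 (3.23-fold). Mylk2, a skeletal myosin light chain kinase, was at least 5.26-fold lower (304 and 11.7) and Myh6, a cardiac heavy chain, at least 4.34-fold lower (251 and 36.9), both as bounds. With 1 floor for both arrays the bounds shrank to 2.43-fold for Mylk2 and to just past 2-fold for Myh6, and after normexp with quantile normalization Mylk2 had -1.04 and Myh6 -0.87. Of 6 markers of skeletal muscle fibres, 2 had a probe well above background in the control and 4 in the EP4 cKO colon. Acta1 was the one past 2-fold. The E1A scaling put 6 of the 11 striated relatives and 3 of 4 skeletal markers more than 2-fold higher, beside 39.9% of all genes.

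Cnn1, Myl9 and Tpm2 all had a Villin-Cre signal from 200 to 1000, a range in which genes were lower more often than at other signals. Among the 3456 genes with a Villin-Cre signal from 200 to 1000, a window chosen after these values were seen, 18.8% were more than 2-fold lower and 5.38% more than 2-fold higher, with a median log2 ratio of -0.29. Among the 9114 genes with a signal above 1000 those shares were 4.2% and 3.09%, and among the 2109 genes below 200, many of them bounds, 6.54% and 11.8%. The 5 contractile genes within 2-fold all had a brightest probe above 1000.

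**Figure D3:**
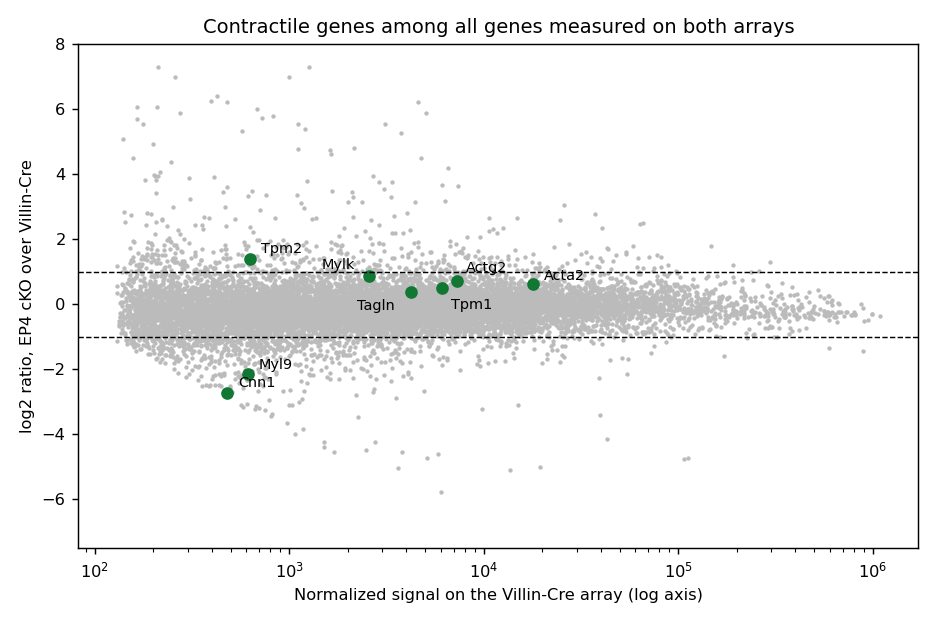
log2 ratio of EP4 cKO over Villin-Cre against the normalized signal on the Villin-Cre array (log axis) for all genes measured on both arrays (grey) and the 8 contractile genes among them (green), with dashed lines at 2-fold. Cnn1 and Myl9 lie at the lower edge of the cloud at signals under 1000, while Acta2, Actg2, Tagln, Tpm1 and Mylk lie in its upper part at higher signals.

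The other genes of the smooth muscle cytoskeleton were mixed. Of the 26, 18 had a value, 3 were lower, 2 were higher, 12 lay within 2-fold and 1 had a bound that does not exceed 1-fold, beside 7.98% lower and 4.88% higher among all genes, with a median log2 ratio of -0.26. Itga7, the integrin alpha7 chain that binds laminin around muscle cells, fell from 4210 to 1548 (-1.44), Cald1, caldesmon, an actin-binding brake on myosin, from 307 to 123 (-1.32), and Nexn, nexilin, an actin-binding protein, from 623 to 308 (-1.02). Dstn, destrin, which severs actin filaments in many cell types, rose from 61337 to 134577 (1.13), and Ldb3, a protein of the Z-disc of striated muscle, from 485 to 993 (1.03). Nexn and Ldb3 lay at the threshold. Nexn had -0.86 with scaling to the 75th percentile, and the dimmer probe of Ldb3 had -0.07, so that its direction depends on the probe. After normexp with quantile normalization Cald1 had -0.41, Nexn -0.50 and Ldb3 0.97. The median of the list was -0.10 with scaling to the 75th percentile and -0.04 with the dimmest probe. With scaling to the E1A control spots, where 39.9% of all genes were more than 2-fold higher, none of the list was lower, 6 were higher and the median was 0.78.

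Among regulators of contraction 2 of 18 genes with a value were lower, beside 7.98% of all genes. Ppp1r14a, the inhibitor of myosin phosphatase also known as CPI-17, fell from 1216 to 329, a log2 ratio of -1.89. Pde5a, the phosphodiesterase that degrades cyclic GMP, fell from 9313 to 3104, a ratio of -1.59. After normexp with quantile normalization Ppp1r14a had -1.25 and Pde5a -1.40. Of the 29 genes in this list 28 had a probe, none was called higher, 15 lay within 2-fold, 1 had a bound that does not exceed 1-fold, and the median was -0.06 (0.07 with scaling to the 75th percentile). With scaling to the E1A control spots Ppp1r14a had -0.84 and Pde5a -0.54. Under that scaling 8 genes of this list were more than 2-fold higher, beside 39.9% of all genes, and the median was 0.97. 

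Of 20 transcription factors tied to smooth muscle, 12 had a value and 1 was lower by more than 2-fold, beside 7.98% of all genes. None was called higher, but 1 was with scaling to the 75th percentile and 1 with the dimmest probe. Under the E1A scaling 4 were, beside 39.9% of all genes. Myocd, myocardin, was well above background on the Villin-Cre array only, with normalized signals of 188 and 13.5, and was at least 3.25-fold lower on the EP4 cKO array. This call was lost with 1 floor for both arrays (-0.59), after normexp with quantile normalization (-0.55) and with scaling to the E1A control spots (-0.66). Srf, the serum response factor to which it binds, had 3346 and 4009, a log2 ratio of 0.26. The median of this list was -0.17 (0.04 with scaling to the 75th percentile).

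The CArG box was sought in the 250 bases before the start of each gene, on RefSeq sequence of the build GRCm38.p6. The table of these windows held 7 of the 10 genes. The pattern is its own reverse complement, so that both strands are covered at once. It was found in 1 of the 7, Myl9, and in 1.47% of all 32851 windows. With 1 mismatch allowed it was found in 3 of the 7 (Acta2, Myl9 and Tpm1) and in 18.6% of all windows. These 3 and the window of Cnn1, which fell with Myl9 and held no match, are shown here 5′ to 3′ on the strand of the gene, with each match in capitals.
Acta2, chr19:34255374-34255623, - strand: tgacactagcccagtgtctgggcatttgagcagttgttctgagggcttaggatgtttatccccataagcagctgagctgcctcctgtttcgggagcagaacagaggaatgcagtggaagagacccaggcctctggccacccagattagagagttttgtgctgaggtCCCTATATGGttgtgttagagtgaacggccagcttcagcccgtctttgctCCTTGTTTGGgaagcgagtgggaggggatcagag
Myl9, chr2:156775214-156775463, + strand: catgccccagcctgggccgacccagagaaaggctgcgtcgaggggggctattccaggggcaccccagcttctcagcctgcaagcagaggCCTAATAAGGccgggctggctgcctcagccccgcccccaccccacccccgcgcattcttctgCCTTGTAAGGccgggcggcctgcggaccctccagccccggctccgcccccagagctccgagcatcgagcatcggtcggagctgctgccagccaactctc
Tpm1, chr9:67049214-67049463, - strand: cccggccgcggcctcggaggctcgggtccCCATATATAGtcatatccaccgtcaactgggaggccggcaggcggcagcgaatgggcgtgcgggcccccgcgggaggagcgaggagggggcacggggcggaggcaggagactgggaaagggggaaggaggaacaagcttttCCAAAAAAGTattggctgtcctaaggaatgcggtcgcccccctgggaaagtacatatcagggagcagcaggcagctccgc
Cnn1, chr9:22099003-22099252, + strand: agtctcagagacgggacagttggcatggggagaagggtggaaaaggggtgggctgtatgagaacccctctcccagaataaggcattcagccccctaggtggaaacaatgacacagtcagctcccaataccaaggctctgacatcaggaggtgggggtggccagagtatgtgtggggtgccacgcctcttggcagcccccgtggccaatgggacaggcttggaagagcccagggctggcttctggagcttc
In Acta2 the matches begin 84 and 34 bases before the start, both with a mismatch. In Myl9 the exact match begins 161 bases before the start and the match with a mismatch 99 bases before it. In Tpm1 both matches, 221 and 80 bases before the start, have a mismatch. Acta2 and Tpm1, with matches, were above 0 with their brightest probes, and Myl9, with matches, was lower. Without a match, Cnn1 was lower, Tpm2 was higher (1.40), Mylk was above 0 and within 2-fold (0.86), and Des had no fold. A match describes these letters only, and elements farther away were not searched.

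Among markers of other cell types of the wall, those of fibroblasts were lower as a list, whereas most of the others with a value lay within 2-fold. Their part in the falls of Cnn1 and Myl9 was not tested. Of 8 fibroblast markers, 6 had a value and all 6 were lower, beside 7.98% of all genes. Their median log2 ratio was -4.66 (-2.71 after normexp with quantile normalization and -3.54 with 1 floor for both arrays). Only 2 of the 6 were well above background on both arrays, and both were lower. The others, well above background on the Villin-Cre array only, are bounds, which could come out lower or at 0 but not higher. The medians include these bounds. Dcn, decorin, fell from 6006 to 110 (-5.77) and Col1a2, a collagen I chain, from 3613 to 111 (-5.03). Col3a1 was at least 28.0-fold, Col1a1 at least 22.7-fold and Mfap5 at least 19.9-fold lower. These bounds shrank to 12.9-fold, 10.5-fold and 9.16-fold with 1 floor for both arrays. After normexp with quantile normalization these 3 genes were 7.78-fold, 5.48-fold and 4.32-fold lower, and Dcn had -4.17 and Col1a2 -3.33. The summed normalized signal of this list was 15520 in the control and 345 in the EP4 cKO colon, 6 genes being well above background on the first and 2 on the second, and the defining marker Pdgfra on neither. Such a sum is weighted by the bright probes, includes probes without a measured level, and is set against the same probes on the other array only. Of 6 markers of pericytes, the contractile cells around small vessels, 4 had a value. Pdgfrb fell from 553 to 192 (-1.52) and Kcnj8, a potassium channel subunit, from 1033 to 424 (-1.29), Notch3 had a ratio of 0.07, and Rgs5 had no measured level. After normexp with quantile normalization Pdgfrb had -0.70 and Kcnj8 -0.76, and neither passed 2-fold, nor did they with scaling to the E1A control spots. The summed signals of the pericyte list were 3483 and 2615. Of 9 markers of enteric neurons, 4 had a value, and Uchl1, a ubiquitin hydrolase abundant in neurons, fell from 1877 to 699 (-1.43). Elavl4 had -0.82, Tubb3 -0.38 and Snap25 0.50, and Ret, Prph, Vip and Nos1 had no measured level. Notch3, Rgs5, Pdgfra and the neuronal genes not past 2-fold were singled out after their values were seen. The E1A scaling also ended the call of Uchl1 (-0.38). None of the 3 markers of interstitial cells of Cajal passed 2-fold, with ratios of -0.71 (Kit), 0.18 (Ano1) and -0.57 (Etv1). The epithelial list had a median of 0.10, with Krt20, a keratin of mature surface cells, higher (1.80) and the other 8 within 2-fold. The E1A scaling put 6 of the 9 epithelial markers and 1 of the 3 Cajal cell markers more than 2-fold higher, beside 39.9% of all genes. The epithelial median was then 1.15. For endothelium, mesothelium and leukocytes, 2 of 6, 1 of 4 and 2 of 5 markers had a value and none of them passed 2-fold, although 1 leukocyte marker did with scaling to the 75th percentile and with loess, and 1 each of endothelium and leukocytes with scaling to the E1A control spots.

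**Figure D4:**
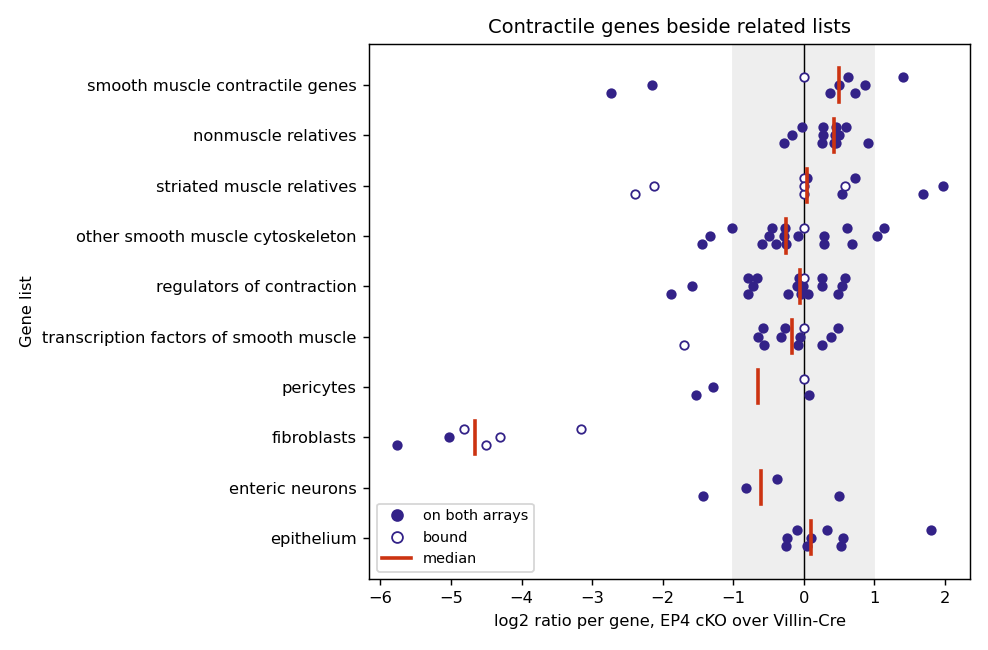
log2 ratio of EP4 cKO over Villin-Cre per gene for the contractile genes and 9 related lists, with filled points for genes well above background on both arrays, open points for bounds (a bound that does not exceed 1-fold is drawn at 0), a red line at each median and a grey band for ratios within 2-fold. The contractile genes spread from -2.73 to 1.40 around a median of 0.50, the nonmuscle relatives all lie within the band, and all fibroblast markers lie left of it.

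The falls of Cnn1 and Myl9 and the rise of Tpm2 passed 2-fold under each of 9 other settings of the processing. Cnn1 ranged from -2.73 to -1.03 and Myl9 from -2.15 to -1.10, the weakest values being those after normexp background correction with quantile normalization. Tpm2 ranged from 1.31 to 1.59. For Actg2 (0.72 to 0.88) and Tagln (0.38 to 0.53) every setting left the ratio above 0 and within 2-fold. Mylk ranged from 0.24 to 1.02, passing 2-fold with scaling to the 75th percentile. With the dimmest measured probe in place of the brightest, Acta2 had -0.58 and Tpm1 -0.35. Scaling to the E1A control spots, added after seeing the data, moved the median of all genes by 0.98 and put 39.9% of them more than 2-fold higher, and the 5 genes within 2-fold then had ratios from 1.42 to 1.91, Tpm2 2.45, Cnn1 -1.68 and Myl9 -1.10. The falls of Cnn1 and Myl9 had the same sign under every scaling, whereas whether Acta2, Actg2, Mylk, Tagln and Tpm1 lay within 2-fold depended on it.

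**Figure D5:**
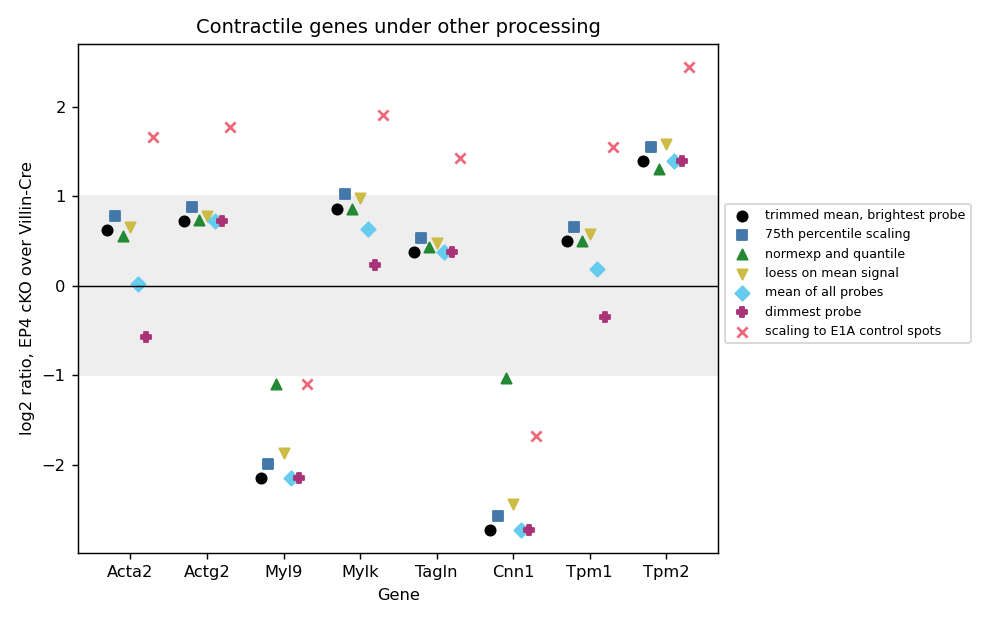
log2 ratio of EP4 cKO over Villin-Cre of the 8 contractile genes measured on both arrays, under the trimmed mean with the brightest probe and 6 other settings (symbols), with a grey band for ratios within 2-fold. Cnn1 and Myl9 lie below the band and Tpm2 above it under all 7, while Acta2 and Tpm1 cross 0 with the dimmest probe and all genes shift upward with scaling to the E1A control spots.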

How the data were processed

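RNA of colon was labelled with Cy3 by the authors and hybridized to 2 Agilent mouse arrays, 1 per genotype, with groups taken from the genotype labels. The deposited intensities are the processed signal of each spot, which the scanner software had background-subtracted and detrended, together with its error estimate, the median signal and the local background. They were not normalized between arrays, which lay on the same slide. The file headers name Feature Extraction 12.0.3.1, and the submitters' processing notes 11.5.1.1. Spots marked as outliers on at least 1 array were omitted, the spots of a probe were averaged, and signals were scaled as in the methods of the study to a trimmed mean of 2500 without 2% of the probes at each end (factors 3.45 for Villin-Cre and 2.68 for EP4 cKO). Of 56593 probes, 32989 (58.3%) carried a RefSeq accession that, stripped of its version, belongs to a gene of GRCm38.p6. A gene is represented by its brightest probe with a value. A bound that did not exceed 1-fold was counted at a log2 ratio of 0.

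The genes, lists and rules were chosen with earlier results of these data known. Named are all contractile genes with every probe, Ptger4, all nonmuscle relatives, Myocd and Srf, and from each other list up to 5 genes past 2-fold. Genes named beyond this rule, mostly markers without a measured level, were singled out after their values were seen. No test was made, since there is 1 array per genotype. The other settings were the 75th percentile, normexp (offset 50) with quantile normalization, loess (span 0.3), other filters, floors, probes and thresholds, outlier spots kept, and scaling to E1A spots. The number of arrays limits the precision. The steps were tested on simulated data. Normexp was run on the median signals with limma 3.58.1 in R 4.3.3, loess with statsmodels 0.14.6, the other steps with pandas 2.3.3 and numpy 2.4.6 in Python 3.11.15, and plots with matplotlib 3.10.9.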

Additional observations from a re-analysis of the deposited data

How the results depend on the processing

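The count of 2 contractile genes more than 2-fold lower stayed at 2 under all settings tried except with no filter on dim probes, where Myh11, at its own signals below background, made it 3. The count of 1 gene more than 2-fold higher was 2 with scaling to the 75th percentile and 2 with no filter on dim probes, 4 at a threshold of 1.5-fold, 0 at a threshold of 3-fold, and 6 with scaling to the E1A control spots, under which 39.9% of all genes were more than 2-fold higher. The median log2 ratio of the contractile genes, 0.50, was 0.19 with a gene's probes averaged, 0.00 with the dimmest probe and 1.55 with scaling to the E1A control spots. It was between 0.50 and 0.66 under the other settings. The cause of these shifts was not tested, apart from the E1A scaling, which adds 1.05 to every ratio measured on both arrays by construction, the 7 E1A probes well above background on all spots having ratios from -1.14 to -0.93 after scaling to the trimmed mean. Scaling to the 75th percentile, normexp with quantile normalization and loess each raised the median of all genes by 0.10. No paired analysis was possible because each genotype had 1 array, and for the same reason no replicate could be left out. Signal over background limits Myh11, Des and the dim side of Cnn1, and the spread between mice is unknown. Scaling to the E1A control spots was chosen after seeing the data.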
